A study of Mus musculus with 16 samples.

Results

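The immediate early response genes examined here were Fos, Fosb, Jun, Junb, Egr1, Atf3, Ier2, Dusp1, Zfp36 and Nr4a1, which were taken by name from the count files. All 10 were among the 22298 genes of the files and among the 16817 genes that could be tested between the groups. The tumors came from 615-line mice, labelled as wild type, that were used for the model at 6 weeks of age. The mice carried MFC cells, a murine gastric cancer line, after injection of 500000 cells into the abdominal cavity. The vehicle group (8 tumors) was given PBS, and the IL-33 treatment group (8 tumors) was given IL-33 at 20 μg/kg every other day, both by the intraperitoneal route. All 16 tumors thus shared host strain, cell line and route, and each was sequenced as 1 bulk poly(A) RNA library of tumor tissue.

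Immediate early genes are switched on within minutes of a stimulus without new protein synthesis, through MAP kinases, CREB and serum response factor acting on promoters that are already poised. Their products are transcription factors (the AP-1 proteins Fos, Fosb, Jun, Junb and Atf3, the zinc finger protein Egr1, the orphan nuclear receptor Nr4a1) and feedback regulators that end the response (the MAP kinase phosphatase Dusp1 and the mRNA decay factor Zfp36). Their mRNAs are short-lived, and they are also known to respond to the handling of tissue. IL-33 is an alarmin cytokine that signals through its receptor ST2 to NF-κB and MAP kinases.

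Each vehicle tumor had 14139268 to 24290794 counts in total and each IL-33 tumor 16569613 to 24288893. CPM is the count of a gene per 1000000 counts of its tumor, and the tests used TMM factors in addition, which were 0.640 in vehicle replicate 4, 1.24 in IL-33 replicate 7 and between 0.895 and 1.10 in the other tumors. Vehicle replicate 4 held 12805 CPM of red cell markers, and IL-33 replicate 7 held 1658 CPM of uterus and oviduct markers and 862 CPM of ovary markers, against at most 23.3 and 2.80 CPM in any other tumor, so results were also computed without these tumors. Of the markers of epithelium, the tissue from which MFC cells derive, Krt8 reached a median of 466 CPM and Krt19 of 133 CPM over the 16 tumors, whereas Epcam had a median of 0.389 CPM and at most 2.40 CPM outside IL-33 replicate 7 (98.8 CPM), and Cldn4 was at 0 in 14 tumors. In bulk tumors, fewer cells that express a gene and less RNA of it per cell cannot be told apart. The study's methods give 4 or 5 mice per group for the abdominal model, fewer than the 8 tumors sequenced in each group. Its survival experiment in this model used more than 8 mice per group, and no source used here ties tumors to mice. Whether some tumors share a mouse is therefore not known, and p-values measure only the spread between these samples. If tumors do share mice, the p-values are too small.

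The 10 genes were expressed at widely different levels. By median CPM per kilobase of annotated exon over the 16 tumors, the order was Junb (76.3), Jun (69.8), Ier2 (43.9), Dusp1 (21.3), Zfp36 (18.3), Egr1 (16.1), Nr4a1 (13.0), Fos (8.39), Atf3 (6.26) and Fosb (0.333). Neighbours in this order had overlapping ranges except Atf3 and Fosb, of which Atf3 was the higher per kilobase in 16 of 16 tumors. Junb was above Jun in 8 of 16 tumors and Zfp36 above Egr1 in 7 of 16, so those neighbours were not separated, whereas Jun was above Ier2 in 15 of 16. Fosb had as few as 20 counts in a tumor, and the other members had at least 131. Junb shared 173 exon bases with Prdx2 on the opposite strand and Dusp1 shared 11 with Ergic1, and since the use of strand is not stated, reads there could have been assigned to either gene or to none.

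The promoters of the members that the results turn on are shown from the RefSeq table of GRCm38.p6, which held 8 of the 10. Each run is the 250 bases before the annotated start of transcription, 5′ to 3′ on the strand of the gene, and capitals mark matches, on either strand, to the motifs searched. These were the cyclic AMP response element (CRE, TGACGTCA), its shorter core TGACG, the AP-1 site TGANTCA, the EGR site GCGNGGGCG, the TATA box TATAAA and the CArG box of serum response factor. The CRE core lies within every full CRE, so those matches overlap. Fos lies at chr12:85473890-85477273 on the plus strand, Zfp36 at chr7:28376784-28380253, Dusp1 at chr17:26505590-26562128 and Jun at chr4:95049034-95052222 on the minus strand (GENCODE gene spans, GRCm38). The RefSeq starts of Zfp36 and Dusp1 lie inside these longer spans, and the runs printed are chr12:85473640-85473889 for Fos, chr7:28379229-28379478 for Zfp36, chr17:26508473-26508722 for Dusp1 and chr4:95052223-95052472 for Jun. Fos and Zfp36 are shown as the members with the largest differences between the groups, and Jun and Dusp1 as a pair that varied together.
Fos: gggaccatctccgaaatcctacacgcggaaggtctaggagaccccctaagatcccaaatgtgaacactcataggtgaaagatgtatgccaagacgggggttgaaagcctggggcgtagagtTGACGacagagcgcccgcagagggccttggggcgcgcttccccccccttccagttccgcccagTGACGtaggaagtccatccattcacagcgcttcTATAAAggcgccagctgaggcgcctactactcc
Zfp36: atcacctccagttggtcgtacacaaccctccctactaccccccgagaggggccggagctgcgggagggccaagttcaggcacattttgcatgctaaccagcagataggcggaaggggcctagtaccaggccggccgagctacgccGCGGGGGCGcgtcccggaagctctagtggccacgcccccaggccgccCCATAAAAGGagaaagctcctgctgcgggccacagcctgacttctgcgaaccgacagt
Dusp1: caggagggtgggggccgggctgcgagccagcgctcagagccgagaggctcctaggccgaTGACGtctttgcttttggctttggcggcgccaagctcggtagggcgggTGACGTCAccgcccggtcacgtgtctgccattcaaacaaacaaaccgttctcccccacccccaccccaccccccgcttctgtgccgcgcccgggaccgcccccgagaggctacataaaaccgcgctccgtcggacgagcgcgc
Jun: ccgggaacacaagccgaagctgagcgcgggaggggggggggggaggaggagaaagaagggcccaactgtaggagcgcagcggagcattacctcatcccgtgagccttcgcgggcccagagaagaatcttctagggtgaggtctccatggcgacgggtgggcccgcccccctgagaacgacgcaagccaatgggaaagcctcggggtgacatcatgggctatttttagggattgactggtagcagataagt
Fos carried a CRE core 66 bases and another 129 bases before its start, with a TATA box at 33 bases. Dusp1 had the only full CRE of the 8 promoters, 143 bases before the start, a motif held by 1.79% of 32851 promoters of the same table, scanned over 300 bases that included 50 after the start. Over the same window the CRE core occurred in 6 of the 8 member promoters against 20.8% of all promoters. The EGR site occurred in 3 (Fosb, Nr4a1 and Zfp36) against 5.55%, and the CArG box in 1 (Zfp36, 58 bases before the start) against 1.63%. The TATA box occurred in 2 (Fos and Junb) against 13.6%, and in Junb it began at the annotated start rather than before it. The AP-1 site was found in 0 of the 8 against 7.81%, and Jun held none of the 6 motifs in this window. These are matches of letters and were not tested as binding sites, and bases farther from the start were not searched for any member.

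The comparison of the groups asked whether tumors under IL-33 differed in their early response transcripts. Fos and Zfp36 had higher levels in the IL-33 treatment group, with mean CPM 1.79 and 1.62 times those of the vehicle group, and they were the only members with an unadjusted p under 0.05. Neither passed the Benjamini-Hochberg adjustment over 16817 genes in edgeR's quasi-likelihood test, and no gene of the genome did (0%, smallest adjusted p 0.418). The 2 members stand against a background of 9.99% of all genes higher and 1.17% lower at an unadjusted p under 0.05. Without IL-33 replicate 7 the background was 1.83% higher and 2.29% lower of 15803 genes, again with 0% past the adjustment, and the same 2 members had an unadjusted p under 0.05. DESeq2 also called 0 genes after adjustment, with 691 at an unadjusted p under 0.05 (424 higher, 267 lower) against 1876 by edgeR (1680 higher, 196 lower). By fitted change, 8 members were higher and 2 lower under IL-33, where 58.3% of all genes tested were higher (47.9% without IL-33 replicate 7). The number of members higher was 6 without IL-33 replicate 2 and between 6 and 9 over all settings. The median log2 fold change of the members was 0.26 against 0.06 over all genes tested, and 0.36 against -0.01 without IL-33 replicate 7.

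**Figure D1:**
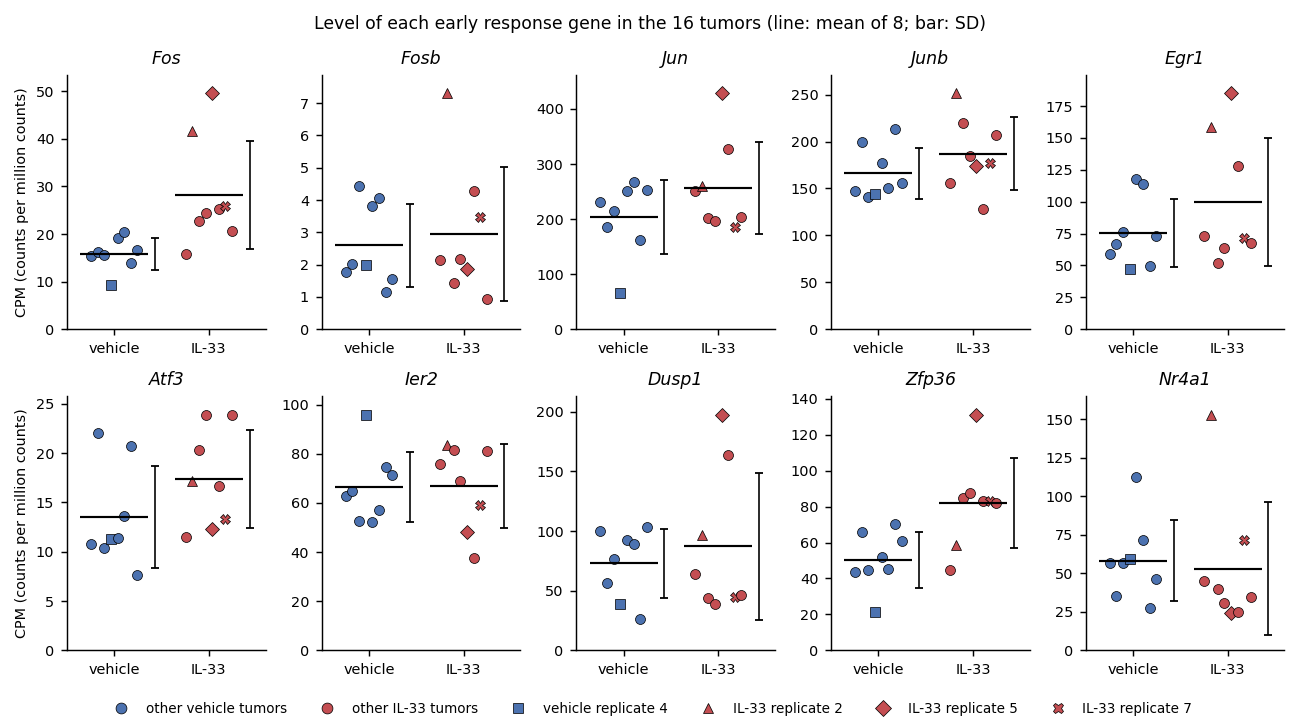
Level of each member in the 16 tumors, as CPM on linear axes that start at 0, with vehicle tumors in blue and IL-33 tumors in red, a line at the mean of 8 tumors and a bar for the SD. For Fos, 7 of 8 IL-33 tumors lie above every vehicle tumor and for Zfp36 6 of 8 do, while the other members overlap more widely, with IL-33 replicates 2 and 5 at the top of several panels.

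Fos encodes the AP-1 subunit whose brief induction defines the class. Its level in the vehicle group was 9.26 CPM at the lowest, 15.95 at the median and 20.4 at the highest, and in the IL-33 treatment group 15.8, 24.8 and 49.5 CPM. IL-33 replicate 1 alone lay within the vehicle range, and IL-33 replicates 5 and 2 stood at the top with 49.5 and 41.7 CPM. Vehicle tumors averaged 15.8 ± 3.36 CPM (SD, n = 8) and IL-33 tumors 28.3 ± 11.4 CPM (SD, n = 8). The log2 fold change was 0.78 (SE 0.22), with an edgeR p of 0.00275 (adjusted p = 0.418) and a p of 0.00155 from exact permutation (two-sided, of log2(CPM + 0.5)). Without IL-33 replicate 7 the log2 fold change was 0.83 (edgeR adjusted p = 0.964). With TMM factors, 6 of 8 rather than 7 of 8 IL-33 tumors lay above every vehicle tumor, and the lowest vehicle value moved from 9.26 CPM (replicate 4) to 13.3 CPM (replicate 7).

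Zfp36 encodes tristetraprolin, which binds AU-rich elements and speeds the decay of cytokine and early gene mRNAs. Its level was 21.4, 48.6 and 70.3 CPM at the lowest, median and highest of the vehicle tumors and 44.8, 83.2 and 131.3 CPM of the IL-33 tumors. IL-33 replicates 1 and 2 lay within the vehicle range and the other 6 lay above it, 5 of them close together between 81.8 and 87.4 CPM. With TMM factors the same 6 lay above every vehicle tumor, but those 5 ran from 67.0 to 93.0 CPM. The lowest of them, IL-33 replicate 7, was only just above the highest vehicle tumor (66.9 CPM). The mean was 50.5 ± 15.6 CPM (SD, n = 8) against 81.9 ± 25.1 CPM (SD, n = 8). The log2 fold change was 0.66 (SE 0.20), with p = 0.00423 and adjusted p = 0.418 in edgeR's test and p = 0.00808 in the exact permutation test, and 0.69 (edgeR adjusted p = 0.964) without IL-33 replicate 7. Fos and Zfp36 kept an unadjusted p under 0.05 in each of the 16 fits that left out 1 tumor, over which the log2 fold change lay between 0.59 and 0.87 for Fos and between 0.50 and 0.74 for Zfp36.

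The other AP-1 members had wide overlap between the groups. Jun, the main partner of Fos, had 65.0, 222.7 and 267.6 CPM at the lowest, median and highest in the vehicle group and 185.9, 228.1 and 428.3 CPM under IL-33. The medians were close, the top came from IL-33 replicates 5 (428.3 CPM) and 6 (327.7 CPM), and the log2 fold change was 0.32 (SE 0.24, edgeR adjusted p = 0.666). Vehicle replicate 4 had the lowest Jun of all tumors, and with its TMM factor it was still lowest at 101.6 CPM. Junb, an AP-1 subunit that can oppose Jun, varied least, with 140.6, 153.0 and 213.0 CPM against 128.0, 180.7 and 251.2 CPM, and its highest tumor was 1.96 times its lowest. Its log2 fold change was 0.08 (SE 0.15, edgeR adjusted p = 0.911), and it turned to -0.012 without IL-33 replicate 2, the tumor with most Junb. Fosb, a Fos paralog of low level here, had 1.14, 2.00 and 4.45 CPM against 0.947, 2.15 and 7.30 CPM. Both ends of its range lay in the IL-33 treatment group, and its log2 fold change of 0.11 (SE 0.44, edgeR adjusted p = 0.965) became -0.26 without IL-33 replicate 2 and -0.047 with the replicate number as a block. Atf3, a stress-induced repressor of the same leucine zipper class, had 7.66, 11.4 and 22.1 CPM against 11.4, 16.9 and 23.9 CPM. Its log2 fold change was 0.27 (SE 0.23, edgeR adjusted p = 0.721), with 2 of 8 IL-33 tumors above every vehicle tumor.

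Among the other transcription factors and Ier2, the groups differed by less than the spread between tumors. Egr1, which drives growth and inflammatory genes through GC-rich sites, had 47.5, 69.7 and 117.5 CPM in the vehicle group and 52.0, 72.6 and 184.9 CPM under IL-33. IL-33 replicates 5, 2 and 6 lay above every vehicle tumor and the other 5 lay within the vehicle range, and the log2 fold change was 0.36 (SE 0.30, edgeR adjusted p = 0.712). Nr4a1, which restrains inflammatory gene expression in macrophages and T cells, had 27.6, 56.7 and 112.4 CPM against 23.9, 37.2 and 152.9 CPM. IL-33 replicate 2 held the highest value, while 6 of the 8 IL-33 tumors lay below the vehicle mean. The log2 fold change was -0.27 (SE 0.39, edgeR adjusted p = 0.868), and without IL-33 replicate 2 it was -0.77, with an unadjusted p under 0.05 (edgeR adjusted p = 0.359). Ier2, a nuclear regulator induced with the AP-1 genes, had 52.3, 63.7 and 96.0 CPM against 37.5, 72.4 and 83.5 CPM. Its log2 fold change of -0.15 (SE 0.22, edgeR adjusted p = 0.872) turned to 0.092 without vehicle replicate 4, whose 96.0 CPM was the highest of all tumors, and to 0.011 without normalization factors.

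Dusp1, the phosphatase that removes activating phosphates from p38, JNK and ERK, had 26.4, 82.8 and 103.3 CPM in the vehicle group and 38.8, 55.2 and 197.6 CPM under IL-33. The IL-33 tumors lay at both sides of the vehicle median, with replicates 5 and 6 at 197.6 and 163.6 CPM and 4 tumors between 38.8 and 46.2 CPM. The log2 fold change was 0.25 (SE 0.40, edgeR adjusted p = 0.880), and it was -0.047 without IL-33 replicate 5.

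**Figure D2:**
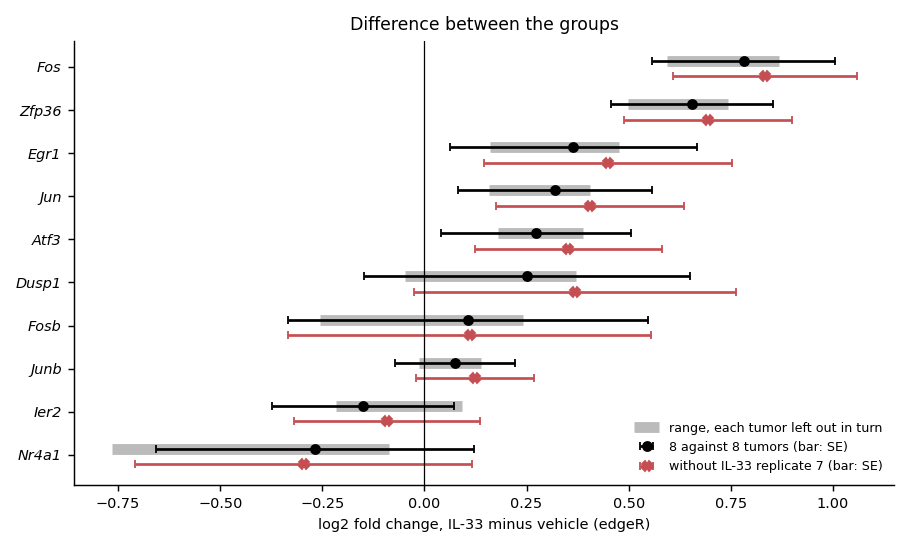
Difference between the groups for each member as the log2 fold change by edgeR, IL-33 minus vehicle, with all 16 tumors (black, bar for the SE) and without IL-33 replicate 7 (red, bar for the SE), and a grey band for the range over fits that left out 1 tumor each. The bands of Fos and Zfp36 lie between 0.50 and 0.87, while those of Dusp1, Fosb, Junb and Ier2 cross 0.

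The rest of the pathway was read from lists of related genes. Of 24 other early response genes, 5 were higher and 0 lower at an unadjusted p under 0.05, where 9.99% of all genes were higher. Without IL-33 replicate 7 the count was again 5, against 1.83% of all genes, and the median log2 fold change of the list was 0.21 rather than 0.17. Btg2, an antiproliferative early gene, had 22.9 ± 5.75 against 37.9 ± 19.0 CPM (SD, n = 8 each) and a log2 fold change of 0.60 (edgeR adjusted p = 0.418). Its highest tumor was IL-33 replicate 7 (80.2 CPM), without which the log2 fold change was 0.43. Plk2, a stress-induced kinase, had 47.5 ± 8.60 against 63.6 ± 11.1 CPM and a log2 fold change of 0.36 (edgeR adjusted p = 0.418). Socs3, the cytokine-induced inhibitor of JAK and STAT signaling, had 120.5 ± 23.5 against 157.2 ± 30.1 CPM and a log2 fold change of 0.29 (edgeR adjusted p = 0.418). In each of these 3 genes 7 of 8 IL-33 tumors lay above the vehicle mean, and Btg2 and Plk2 kept an unadjusted p under 0.05 with any single tumor left out. The other 2 of the 5, Klf10 (log2 fold change 0.48, edgeR adjusted p = 0.444) and Nfkbiz (0.39, edgeR adjusted p = 0.439), were named after their values were seen, and kept an unadjusted p under 0.05 in 7 and 5 of the 16 fits that left out 1 tumor.

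Paralogs and regulators of the members were read at the same threshold. Of 12 other AP-1 genes and 6 other EGR and NR4A genes, 0 had an unadjusted p under 0.05, with median log2 fold changes of 0.06 and -0.12 (0.04 and -0.0081 without IL-33 replicate 7). The smallest p was that of Jund in the first list (log2 fold change -0.50, edgeR adjusted p = 0.679), which was 0.15 without vehicle replicate 4 and 0.16 by DESeq2, and that of Nab2, a corepressor of EGR proteins, in the second (-0.39, edgeR adjusted p = 0.523). Of 15 other feedback genes 0 were called, with a median log2 fold change of 0.22, and Zfp36l1, a Zfp36 paralog, was nearest (0.40, edgeR adjusted p = 0.515, and 0.24 without IL-33 replicate 7). Among 23 upstream kinases and SRF cofactors, Rps6ka1 (0.30, edgeR adjusted p = 0.426) and Mapk13 (1.68, edgeR adjusted p = 0.420) were called, where 9.99% of all genes were higher. Rps6ka1 kept an unadjusted p under 0.05 in 8 of the 16 fits that left out 1 tumor. Mapk13 had -0.018 without IL-33 replicate 7 and -0.020 by DESeq2.

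Genes that the members act on were read in the same way. Of 14 mRNAs known as Zfp36 targets, 0 were called in either direction, with a median log2 fold change of 0.08 (0.25 without IL-33 replicate 7, where the median of all genes was -0.01), and Il10 had the smallest p (0.53, edgeR adjusted p = 0.752). Of 13 genes known as AP-1 targets, 0 were higher and 3 were lower, where 1.17% of all genes were lower. Other genes of matrix turnover in the list had no such p, with a log2 fold change of -0.65 for Mmp9, -0.54 for Mmp13, 0.18 for Plau and 0.02 for Plaur. Mmp10, a stromelysin, had 9.70 ± 5.78 against 4.33 ± 4.06 CPM (SD, n = 8 each) and a log2 fold change of -1.34 (edgeR adjusted p = 0.418). Mmp3, another stromelysin, had 149.2 ± 76.2 against 87.3 ± 30.9 CPM and a log2 fold change of -0.87 (edgeR adjusted p = 0.420). Timp1, an inhibitor of matrix metalloproteinases, had 371.7 ± 340.3 against 208.4 ± 85.9 CPM and a log2 fold change of -1.14 (edgeR adjusted p = 0.418). The value of Timp1 was -0.27 without vehicle replicate 4, where Timp1 and Mmp10 both had an unadjusted p above 0.05. Of the 16 fits that left out 1 tumor, Mmp10 kept an unadjusted p under 0.05 in 15, Timp1 in 14 and Mmp3 in 7. Without IL-33 replicate 7 Mmp10 alone of the 3 kept it, at a log2 fold change of -1.23 beside -1.03 for Timp1 and -0.77 for Mmp3. In 11 heat shock genes and 8 proliferation genes, lists kept as readouts of stress and growth, 0 were called, with Hsp90aa1 (-0.25, edgeR adjusted p = 0.603) and Birc5 (-0.30, edgeR adjusted p = 0.825) nearest.

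Across tumors the members did not move as 1 block. The log2 CPM values (TMM factors, prior count 2) of the 45 pairs had a median Pearson's r of 0.16, with 28 pairs above 0, and 10 pairs had a Benjamini-Hochberg adjusted permutation p under 0.05, of which 9 were positive and 1 negative. Of the 10, 7 also passed by Spearman's rho, 9 had the same sign of r within both groups, and all 10 passed without IL-33 replicate 7, where Jun and Ier2 made an 11th. The pairs share libraries and depth, and the count moved with the tumors used. Only 4 pairs passed without IL-33 replicate 5, 6 without vehicle replicate 7, and 6 with vehicle replicate 4 and IL-33 replicate 7 both left out.

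**Figure D3:**
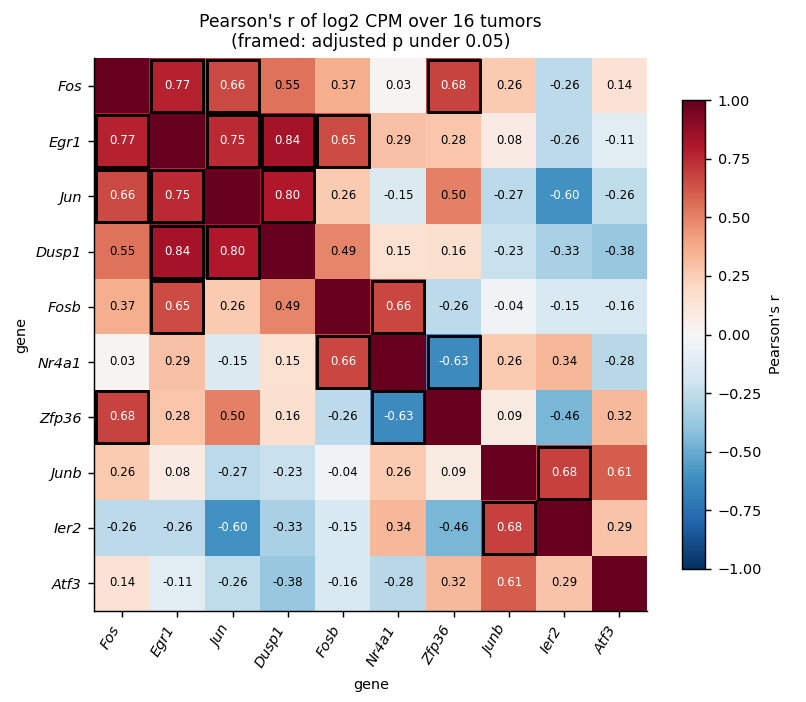
Pearson's r between the log2 CPM values of each pair of members over the 16 tumors, from -1 in blue to 1 in red, with a black frame where the adjusted permutation p was under 0.05. Fos, Egr1, Jun and Dusp1 form the red corner, Junb, Ier2 and Atf3 lie apart from it, and Zfp36 with Nr4a1 is the 1 framed negative pair.

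Jun, Egr1 and Dusp1 were the tightest set. Egr1 and Dusp1 had r = 0.84 (rho = 0.75, permutation p = 4.0e-05, adjusted p = 0.00180, 16 tumors), Jun and Dusp1 had r = 0.80 (rho = 0.83, permutation p = 0.00022, adjusted p = 0.00495) and Jun and Egr1 had r = 0.75 (rho = 0.73, permutation p = 0.00056, adjusted p = 0.00754). Without the pair of tumors farthest from the median of the first gene, these were 0.80, 0.92 and 0.82. Within the IL-33 tumors alone, r was 0.94 (exact p = 0.00258), 0.98 (exact p = 7.4e-05) and 0.89 (exact p = 0.00253), and within the vehicle tumors alone 0.62, 0.61 and 0.47, none with an exact permutation p under 0.05. The difference between the groups in r was not tested. Tumors with most Dusp1 were IL-33 replicates 5 and 6, which also had most Jun, and IL-33 replicates 3, 4, 7 and 8 were low in Dusp1, Jun and Egr1 together, as was vehicle replicate 7.

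Fos followed Egr1 with r = 0.77 (permutation p = 0.00067, adjusted p = 0.00754), and within each group the relation was as strong, at 0.93 in the vehicle tumors (exact permutation p = 0.00305) and 0.86 in the IL-33 tumors (exact permutation p = 0.00799). Over all 16 tumors its rho was 0.46 (permutation p = 0.0768, adjusted p = 0.266), while with the group means taken out r was 0.86 (permutation p = 1.0e-05). Without IL-33 replicates 2 and 5 the pooled r was 0.46 (permutation p = 0.0992), against 0.71 without replicate 2 alone and 0.66 without replicate 5 alone. Fos and Jun had r = 0.66 (rho = 0.55, permutation p = 0.00559, adjusted p = 0.0311), which likewise fell to 0.48 (permutation p = 0.0815) without the same tumors. Fos and Zfp36, the pair with the largest group differences, had r = 0.68 (rho = 0.71, permutation p = 0.00391, adjusted p = 0.0293). Once the group means were taken out r was 0.46 (permutation p = 0.0747), with 0.62 within the IL-33 tumors and -0.073 within the vehicle tumors, so the pooled value includes the difference between the groups.

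**Figure D4:**
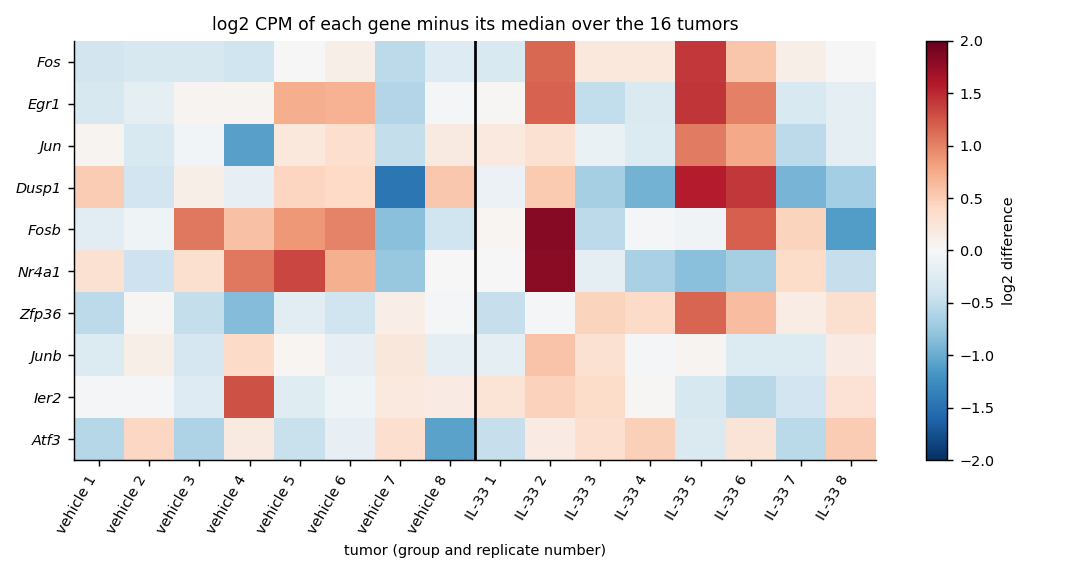
The log2 CPM of each member in each tumor minus the median of that gene over the 16 tumors, in blue below and red above, with vehicle tumors to the left of the line. IL-33 replicate 5 is high for Fos, Egr1, Jun, Dusp1 and Zfp36 but low for Nr4a1, and IL-33 replicate 2 is high for Fos, Egr1, Fosb and Nr4a1.

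The tumors at the top of the range differed in which members they carried. IL-33 replicate 5 was highest of the IL-33 tumors for Fos (49.5 CPM), Jun (428.3), Egr1 (184.9), Dusp1 (197.6) and Zfp36 (131.3), yet lowest for Nr4a1 (23.9). IL-33 replicate 2 was highest for Fosb (7.30 CPM), Junb (251.2), Ier2 (83.5) and Nr4a1 (152.9), and its Zfp36 (58.5 CPM) lay within the vehicle range. Zfp36 and Nr4a1 had the 1 negative call, with r = -0.63 (rho = -0.69, permutation p = 0.00852, adjusted p = 0.0383), of the same sign in the vehicle (-0.71) and the IL-33 tumors (-0.58). On log2 CPM from total counts alone it was -0.50 (permutation p = 0.0512), and without vehicle replicate 4 and IL-33 replicate 5 it was -0.51 (permutation p = 0.0600).

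Fosb varied with Nr4a1 (r = 0.66, rho = 0.54, permutation p = 0.00481, adjusted p = 0.0309) and with Egr1 (r = 0.65, rho = 0.71, permutation p = 0.00623, adjusted p = 0.0311). Without IL-33 replicates 2 and 6 the first was 0.73 (permutation p = 0.00320) and the second 0.46 (permutation p = 0.0935). Junb and Ier2 formed a separate pair (r = 0.68, rho = 0.76, permutation p = 0.00298, adjusted p = 0.0268), with 0.70 in the vehicle and 0.75 in the IL-33 tumors. Without vehicle replicate 4 and IL-33 replicate 2 it was 0.55 (permutation p = 0.0413). On log2 CPM from total counts alone, where no tumor is rescaled, the pair had r = 0.50 (permutation p = 0.0491) and did not pass the adjustment, while 3 other pairs did (Jun with Ier2, Junb with Atf3 and Ier2 with Dusp1). Neither Junb nor Ier2 had a called relation to Fos, Egr1 or Dusp1, and Junb with Atf3 (r = 0.61, permutation p = 0.0125, adjusted p = 0.0513) and Jun with Ier2 (r = -0.60, permutation p = 0.0158, adjusted p = 0.0592) lay just outside the threshold.

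**Figure D5:**
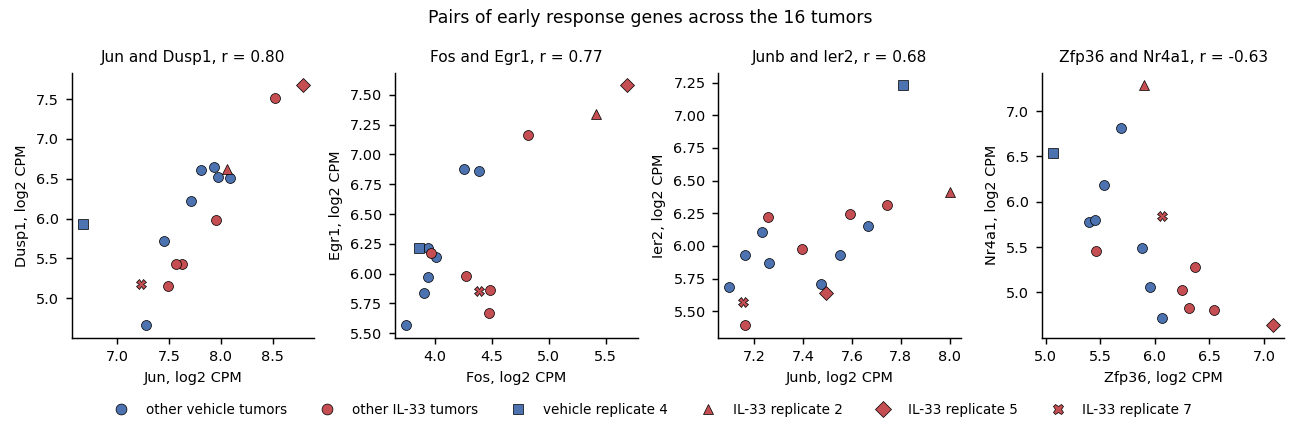
The log2 CPM (TMM factors) of pairs of members, 1 point per tumor, with vehicle tumors in blue and IL-33 tumors in red and separate symbols for 4 tumors. Jun and Dusp1 increase together in both groups except for vehicle replicate 4, Fos and Egr1 increase together within each group, and Zfp36 and Nr4a1 run in opposite directions.

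As a description with no test, the median r of Fos to the other 9 members was 0.37, against a median of -0.01 to all genes tested, and 4 members but only 1.68% of all genes had r of at least 0.5 with it. For Jun, Egr1 and Dusp1 the shares of all genes at that size were 15.6%, 9.40% and 11.4%, so many other genes also varied with them. Ier2 had a median r of -0.26 to the other members and Atf3 of -0.11. The members' mean log2 CPM over the 10 genes was 5.39 ± 0.22 (SD, n = 8) in the vehicle and 5.56 ± 0.38 (SD, n = 8) in the IL-33 tumors, with ranges of 5.04 to 5.68 and 5.23 to 6.21 that overlapped. The mean did not follow all members alike. By deviations from the group means, r to it was 0.94 for Egr1 and 0.86 for Fos, but 0.29 for Junb, 0.08 for Zfp36 and -0.04 for Ier2 and Atf3. Of 13109 genes with a mean of at least 1 CPM, those that followed this mean closely over the 16 tumors (r of deviations from the group means) included Tcim (0.86), Ppard (0.86), Bag3 (0.85), Slc4a8 (0.84), Dennd2c (0.83), Slc22a4 (0.83), Vat1 (0.82) and Sh2d5 (0.82). Bag3 is a cochaperone of the heat shock response, and Ppard is a nuclear receptor that controls fatty acid oxidation. Without IL-33 replicate 7 their r lay between 0.81 and 0.88, and none of these 8 differed between the groups at an unadjusted p under 0.05 in edgeR's test.

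Markers of other cell types were set beside the members, since a bulk tumor mixes their RNA. Of the 8 T cell markers 0 were higher or lower between the groups, and their summed level ran from 8.51 to 90.5 CPM in vehicle tumors, with 4.87 to 79.4 CPM under IL-33. Their mean log2 CPM was related to Fosb with r = -0.77 (rho = -0.80, permutation p = 0.00041), to Dusp1 with r = -0.75 (rho = -0.62, permutation p = 0.00080) and to Egr1 with r = -0.68 (rho = -0.74, permutation p = 0.00429). Adjusted over the 140 pairs of a member and 1 of 14 marker lists, these p-values were 0.0560, 0.0560 and 0.150, and none of the 140 passed by r. By rho 3 passed, of which Fosb with the T cell list was 1 (adjusted permutation p = 0.0252), and without IL-33 replicate 7 Dusp1 passed (r = -0.83, adjusted p = 0.0210). The sign was negative within each group for all 3 genes, with r between -0.88 and -0.70, and r without the pair of tumors farthest from the median of the list was -0.79, -0.61 and -0.62.

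The 10 macrophage markers, of which 0 differed between the groups, summed to 878 to 2413 CPM in the vehicle and 683 to 2196 CPM in the IL-33 tumors. They had r = -0.68 with Fosb and -0.65 with Dusp1 (adjusted permutation p = 0.150 and 0.164). Without the pair of tumors farthest from the median of the list these were -0.57 and -0.40. Within the groups both lay between -0.72 and -0.67. Fos and Zfp36 had r of -0.27 and 0.24 to the T cell list and -0.10 and 0.36 to the macrophage list, none passing the adjustment. Within the groups, Fos and the T cell list had r = -0.68 in the vehicle and -0.43 in the IL-33 tumors. Zfp36 and the macrophage list had rho = 0.53 (permutation p = 0.0373, adjusted p = 0.261), and r was 0.69 without the pair of tumors farthest from the median of the list, 0.78 in the vehicle and -0.0096 in the IL-33 tumors. Zfp36 had r = -0.50 to the red cell list (permutation p = 0.0470, adjusted p = 0.486), with -0.71 in the vehicle and 0.020 in the IL-33 tumors. Without the pair of tumors farthest from the median of the list it was -0.38. Of the 6 genes of this list, 4 were lower under IL-33 at an unadjusted p below 0.05. The list summed to 171 to 12805 CPM in the vehicle and 51.2 to 2846 CPM in the IL-33 tumors. Nr4a1 had r = 0.56 to the same list (adjusted permutation p = 0.325), and its rho was 0.66 (adjusted permutation p = 0.0902).

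The 7 neutrophil markers, of which 0 differed between the groups, summed to 52.2 to 472 CPM in the vehicle and 68.8 to 192 CPM in the IL-33 tumors. The 472 CPM was that of vehicle replicate 4. They had r = 0.60 with Fosb, 0.56 with Egr1 and 0.56 with Nr4a1, each with an adjusted permutation p of 0.325. For Egr1 rho was 0.71, and r was 0.75 without the pair of tumors farthest from the median of the list and 0.84 in the IL-33 tumors. For Fosb rho was 0.60, and r without that pair of tumors was 0.58. For Nr4a1 rho was 0.38 (permutation p = 0.151), and r without that pair of tumors was 0.21. The other calls by rho were to the ovary list, with -0.88 for Jun (adjusted permutation p = 0.00420) and -0.76 for Dusp1 (adjusted permutation p = 0.0490). By r over 16 tumors these were -0.37 and -0.39, and without IL-33 replicate 7 -0.75 for each (adjusted permutation p = 0.0525 for each). Of the 10 ovary markers 10 were higher under IL-33 at an unadjusted p under 0.05, yet their summed level was 0.353 to 2.80 CPM in vehicle tumors and 0.270 to 1.53 CPM in IL-33 tumors other than replicate 7, so these relations rest on levels near 0. In none of the 5 lists was a marker at 0 in every tumor, and the part of these cell types in the members' levels was not tested.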

How the data were processed

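A company sequenced poly(A)-selected RNA of 16 tumors, and the authors deposited raw read counts per gene and tumor. The submitters' processing notes name HISAT2, featureCounts and mm10, and versions, annotation release and use of strand are not given in the sources used here. Identifiers were paired with symbols and coordinates through GENCODE M21 (22255 of 22298), and CPM was computed from the total counts, with no per-sample column left out. Genes whose counts summed to 10 or more (16817) were tested with edgeR 4.0.16 in R 4.3.3 (TMM, glmQLFit, glmQLFTest, Benjamini-Hochberg). Single genes were also tested by exact permutation of log2(CPM + 0.5) over 12870 assignments. Correlations used log2 CPM with a prior count of 2, with 100000 permutations (40320 exact ones within a group) and adjustment over the 45 pairs. P-values in brackets after r are those of r, also where the brackets hold rho. Promoters came from RefSeq (GRCm38.p6).

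The members and gene lists were chosen with earlier results of these data known. Named genes were the 10 members, from each list every gene with an unadjusted p under 0.05 up to the 3 smallest p (otherwise the 1 smallest), and the 10 genes nearest to the members' mean, of which 2 are not reported here. Groups and replicate numbers came from the labels. Same-numbered tumors were not taken as pairs, since the correlations of their deviations from the group means ran from -0.32 to 0.35. No 2 tumors were near-copies (smallest chi-square per degree of freedom 9.12 over 120 pairs). Alternatives were DESeq2 1.42.0, other normalizations, filters, pseudocounts and prior counts, the replicate block, Spearman's rho, deviations from group means, and each tumor left out. The tests were checked on simulated data. At the spread of these tumors, edgeR's test recovered 75.5% of 200 changed genes after adjustment. These were 58 with a 2-fold and 93 with a 4-fold change, and smaller changes were not simulated.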

Additional observations from a re-analysis of the deposited data

Results flagged for a closer look

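In the vehicle group, Jun in replicate 4 stood apart from the other 7 tumors, at 65.0 CPM against 162.9 CPM in the nearest, a gap that made up 0.648 of the range of the group on the scale of log2(CPM + 0.5), past the critical value of Dixon's test for a group of this size. Zfp36 in the same tumor had 21.4 CPM against 43.4 CPM in the nearest, a gap of 0.594 of the range on that scale. Of 20 such tests over the 10 genes and both groups these 2 passed, and chance alone passes about 1 in 20. The TMM factor of this tumor was 0.640, and its levels with that factor were 101.6 CPM for Jun and 33.4 CPM for Zfp36, still the lowest of the vehicle tumors. On log2 of these scaled values, an alternative chosen after seeing the data, the gaps were 0.428 and 0.333, which did not pass, and 3 other values passed (Ier2 highest in the same tumor at 0.701, Dusp1 lowest in vehicle replicate 7 at 0.536 and Nr4a1 highest in IL-33 replicate 2 at 0.545). It also held the most red cell and neutrophil markers of the vehicle tumors (12805 and 472 CPM) and the fewest fibroblast markers (529 CPM), and their part in these values was not tested.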

How the results depend on the processing

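The number of genes past the adjustment stayed at 0 in all settings run, for the members and for the genome. The number at an unadjusted p under 0.05 did not: 1680 higher became 424 by DESeq2, 499 with filterByExpr, 246 with the replicate block and 330 with vehicle replicate 4 and IL-33 replicate 7 both left out (a setting chosen after seeing the data), and 196 lower became 101 without normalization factors, 72 with the block and 329 without both tumors. Over fits without 1 tumor the counts ran from 289 to 1902 higher, the lowest without IL-33 replicate 7, and from 111 (without vehicle replicate 4) to 362 lower (without IL-33 replicate 7), with 307 where IL-33 replicate 3 and 127 where IL-33 replicate 5 was left out. The share of these calls that was higher was 89.6%, against 61.4% by DESeq2 and 44.4% without IL-33 replicate 7, and the median log2 fold change of all genes was 0.13 without normalization factors. Fos and Zfp36 had an unadjusted p under 0.05 in all 24 settings. The replicate block changed no call of a member. The number of called pairs ran from 4 (without IL-33 replicate 5) to 11 (without IL-33 replicate 7) with single tumors left out, and was 6 with both tumors out, 0 in the vehicle tumors alone and 3 in the IL-33 tumors alone. The pairs of members and marker lists went from 0 to 1 without IL-33 replicate 7 and to 3 by Spearman's rho (chosen after seeing the data).

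Signs changed for these values, of which Fos with Zfp36 had passed and Mapk13 had an unadjusted p under 0.05, and the cause was not tested. Ier2 had 0.011 without normalization factors and 0.15 with both tumors out, Fosb had -0.047 with the replicate block, Birc5 had 0.084 and Jund 0.076 with both tumors out, Jund had 0.16 and Mapk13 -0.020 by DESeq2, and Fos with Zfp36 had r = -0.073 in the vehicle tumors alone. Over fits without 1 tumor, the log2 fold change ran from -0.26 to 0.24 for Fosb, -0.012 to 0.14 for Junb, -0.22 to 0.092 for Ier2, -0.047 to 0.37 for Dusp1, -0.59 to 0.15 for Jund and -0.018 to 1.86 for Mapk13. Depth limits Fosb most, with 20 to 121 counts per tumor.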
